A study of Mus musculus with 4 samples.

Results

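Gpd1, Car3 and Ucp1 are genes of white and brown fat cells, and their transcripts were followed here in lung RNA from a mouse model of allergic airway inflammation. The 3 genes were taken by their symbols in the platform annotation, 3 of 9153 genes that had a value on all 4 arrays. They were chosen by their low log2 ratios in the same arrays that are described here, so their values are given as a description, with no test. Gpd1 was measured by 2 probes, Car3 by 3 and Ucp1 by 1, and none of these 6 probes lacked a value on any array.

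Each array set lung RNA of BALB/cJ mice that had been sensitized to and then challenged with ovalbumin, the egg white protein commonly used as an allergen, against pooled RNA from 6 non-sensitized control mice breathing the same air. Particle-free air and air containing UCP were each covered by 2 arrays, with the challenged lung labelled by Cy5 on array 1 and, dyes swapped, by Cy3 on array 2. The labels give no age, sex, dose or time and leave the abbreviation UCP unexplained, and it is not used here for the gene Ucp1. Every value below is a log2 ratio of challenged lung over its control pool, so a negative value means less transcript in the challenged lung than in the pool, and the same ratio would follow from more transcript in the pool. The overall sign of the deposited ratios is likely but not stated. Between 19349 and 19832 probes had a value on each array, and any pair of arrays correlated only weakly over all probes (r from 0.07 to 0.18). Sensitization and challenge cannot be told apart, since no array held lung that was sensitized alone against a control. Each air has its own control pool, so a difference between the airs can come from the challenged lungs or from the pools, and these cannot be told apart. Nothing in the labels states whether the arrays of one air, 1 of them a dye swap, carry RNA of separate animals or the same RNA, so the spread between them may be technical. In whole lung RNA, fewer cells of a type and less RNA per cell cannot be told apart. An array gives no absolute level here, so no gene's abundance is compared with another's.

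White adipocytes store triglyceride in a single large droplet and release it as fatty acids and glycerol, while brown adipocytes burn fatty acids to make heat. Gpd1 encodes the cytosolic glycerol-3-phosphate dehydrogenase, which turns a glycolytic intermediate into the glycerol backbone of triglyceride and, together with the mitochondrial enzyme Gpd2, carries reducing equivalents into mitochondria. Car3 encodes a cytosolic carbonic anhydrase that is abundant in adipocytes and also in slow skeletal muscle and rodent liver. Ucp1 encodes the uncoupling protein of brown fat, a carrier of the inner mitochondrial membrane that lets protons return without making ATP.

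The upstream sequences of Ucp1 and of Adipoq, the gene of the fat hormone adiponectin, are shown because one marks brown and the other white fat and both had negative ratios in UCP air. They are the 250 bases before the annotated start, from RefSeq on build GRCm38.p6, plus strand, at chr8:83290098-83290347 for Ucp1 and chr16:23146286-23146535 for Adipoq. Of the 3 members, 1 (Ucp1) was found in the promoter table. Capitals mark matches, on either strand, to a TATA-like motif (TATANA), a half-site of the cyclic AMP response element (TGACG), a nuclear receptor half-site (AGGTCA) or a CCAAT box (CCAAT).
Ucp1: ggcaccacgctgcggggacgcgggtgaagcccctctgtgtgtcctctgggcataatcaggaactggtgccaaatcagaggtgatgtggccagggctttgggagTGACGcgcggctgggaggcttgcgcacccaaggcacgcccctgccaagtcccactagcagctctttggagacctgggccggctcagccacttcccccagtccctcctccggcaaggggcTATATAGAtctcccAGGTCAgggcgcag
Adipoq: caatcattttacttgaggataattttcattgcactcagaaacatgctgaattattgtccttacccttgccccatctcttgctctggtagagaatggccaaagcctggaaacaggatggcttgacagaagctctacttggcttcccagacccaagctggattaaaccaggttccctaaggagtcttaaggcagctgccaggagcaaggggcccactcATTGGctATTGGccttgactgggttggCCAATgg
In the Ucp1 sequence TGACG starts 147 bases before the start and AGGTCA 14 bases before it. Overlapping TATA-like matches, on both strands, cover bases 28 to 21 before it. The Adipoq sequence holds 3 CCAAT matches, starting 34, 27 and 7 bases before the start, and none of the other motifs. Over 32851 upstream sequences of the same length, 22.6% held the TATA-like motif, 17.8% TGACG, 14.0% AGGTCA and 33.8% CCAAT. These matches describe letters only and are not binding sites.

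Gpd1 was the lowest of the 3 genes. As the mean of its 2 probes it read -1.83 on array 1 and -1.59 on array 2 of particle-free air, and -3.43 and -3.07 on the UCP arrays. All 4 values were far below 0, and the UCP pair lay below the particle-free pair without overlap. The mean was -2.48 ± 0.91 (SD, n = 4), a level 5.58-fold lower than in the control pools. By air it was -1.71 ± 0.18 under particle-free and -3.25 ± 0.25 under UCP air (SD, n = 2 each), that is 3.27-fold and 9.52-fold lower.

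The 2 probes of Gpd1 differed in size, and both placed UCP air lower. Probe 1 read -1.22, -1.16, -2.73 and -3.09 on the 2 particle-free and then the 2 UCP arrays, and probe 2 read -2.45, -2.01, -4.13 and -3.05. Probe 2 was lower on 3 of the arrays by 0.85 to 1.40, and on array 2 of UCP air the probes lay 0.04 apart. Their means over the arrays were -2.05 ± 1.003 and -2.91 ± 0.92 (SD, n = 4 each). The step between airs was present in both, at -1.72 ± 0.18 for probe 1 and -1.36 ± 0.58 for probe 2 (UCP minus particle-free air, SE from 2 arrays each).

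Of the 3 genes Car3 varied least between arrays. The mean of its 3 probes was -1.56 and -1.65 in particle-free air and -2.48 and -2.43 in UCP air. The arrays of an air differed by less than 0.1, and again the UCP values were the lower ones. The mean over the 4 arrays was -2.03 ± 0.49 (SD, n = 4), a 4.09-fold lower level, with 3.04-fold under particle-free and 5.50-fold under UCP air. Single probes gave means of -2.03, -1.90 and -2.16, and within an array they spread over 0.31 to 0.60. In particle-free air the lowest and highest single readings were -1.80 and -1.45, and in UCP air -2.82 and -2.22, so no reading of one air reached those of the other. The probes share their RNA and are repeated readings of a gene, not replicates of a condition.

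Ucp1 showed the widest step between the airs. Its 1 probe lay at -0.60 and -0.62 in particle-free air and at -3.33 and -2.27 in UCP air. The particle-free readings were nearly equal and only a little below 0, while both UCP readings lay far lower and less close to each other. Means were -0.61 ± 0.01 and -2.80 ± 0.75 (SD, n = 2 each), 1.53-fold and 6.96-fold lower than in the pools. The mean of all 4 arrays, -1.71 ± 1.34 (SD, n = 4), lies between those of the airs. Array 1 of UCP air had the lowest value, and without it the UCP value rests on 1 array at -2.27.

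**Figure D1:**
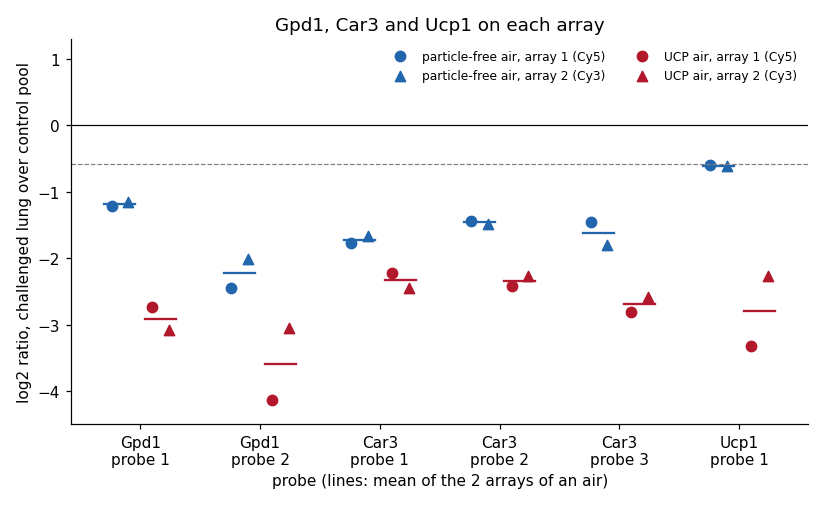
Log2 ratio of challenged lung over control pool (vertical axis) for each probe of Gpd1, Car3 and Ucp1 (horizontal axis) on each of the 4 arrays, circles for array 1 and triangles for array 2 of an air. Short lines are the means of the 2 arrays of an air and the dashed line is a 1.5-fold lower level. Both UCP values lie below both particle-free values for all 6 probes, and Ucp1 in particle-free air lies just past the dashed line.

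Set against all genes, the 3 members lay near the low end of the averaged ratios, at places 25 (Gpd1), 40 (Car3) and 62 (Ucp1) from the lowest of 9153. By air the places were 77, 97 and 838 in particle-free and 27, 47 and 33 in UCP air. At least 1.5-fold lower on all 4 arrays were 3 of 3 members, where 1.02% of all genes were, a share from which nothing is read because the members were chosen by these ratios. With each array centred on its median, Ucp1 in particle-free air moved to -0.57 and no longer reached 1.5-fold on both arrays. Both UCP arrays lay below both particle-free arrays for 3 of 3 members and for 15.4% of all genes. The difference, UCP minus particle-free air, was -1.54 ± 0.22 for Gpd1, -0.85 ± 0.05 for Car3 and -2.19 ± 0.53 for Ucp1 (SE from 2 arrays each), a further 2.91-fold, 1.81-fold and 4.56-fold lower level. These are places 172, 494 and 89 from the lowest difference, so many genes had larger steps between the airs than Gpd1 and Car3 did.

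The other genes of fat were read from lists that do not contain the members. In the list of white adipocyte identity and hormones, 15 of 27 genes were measured, 11 with an averaged ratio below 0 and 4 above. The median was -0.69, beside -0.01 for all genes, with -0.46 under particle-free and -0.99 under UCP air. By limma with Benjamini-Hochberg adjustment over all genes, 0 of these 15 passed in the averaged effect, in either air or in the difference, while 8 had an unadjusted p under 0.05 in the averaged effect, as 1430 of all 9153 genes did. Background shares of the same test were 0.0328% lower and 0.0656% higher for the averaged effect, 0.0109% for particle-free air, 0.0219% for UCP air and 0.0% (0 genes, against 361 at an unadjusted p under 0.05) for the difference between airs. The sentences on these genes therefore give values and not calls.

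Fabp4, the fatty acid carrier of adipocytes and some macrophages, was the lowest of the white fat list. It lay at -1.22 and -0.87 in particle-free air and at -1.94 and -2.15 in UCP air, on average -1.55 ± 0.60 (SD, n = 4, limma adjusted p = 0.0654). All 4 arrays were past 1.5-fold, and the UCP pair lay below the other. Pnpla2 and Lipe, which split stored triglyceride in sequence, lay at -0.39, -0.64, -1.52 and -1.39 and at -0.33, -0.94, -1.09 and -1.17 in the same array order. Both were below 0 on every array and lower in UCP air. Adipoq, which encodes adiponectin, read 0.05 and -0.97 in particle-free air and -1.05 and -1.50 in UCP air, so its particle-free arrays did not share a level. Lpl, the lipase that frees fatty acids from blood lipoproteins, lay at -0.19, -0.37, -1.13 and -1.06 on the mean of 3 probes. The droplet coat protein Plin4 lay at -0.82 ± 0.33 (SD, n = 4).

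Other genes of white fat did not share this order. Plin1, the main droplet coat protein of adipocytes, lay at -0.73 and -1.76 in particle-free air and at 0.29 and -0.58 in UCP air, so here the UCP arrays were the higher ones. Cidec, which enlarges droplets, was at -0.99 and -0.77 against -0.58 and 0.48, again higher in UCP air. Cebpa, a transcription factor of adipocyte differentiation, stayed near 0 at -0.15 ± 0.17 (SD, n = 4). Angptl4, an inhibitor of Lpl, was above 0 on all 4 arrays with a mean of 0.86 ± 0.92 (SD, n = 4), and array 1 of particle-free air, at 2.24, set much of that mean. Cfd, Lep, Retn and Pparg were not analysed here.

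Triglyceride synthesis, the pathway that uses the product of Gpd1, was measured for 22 of 31 genes, 18 below 0 and 4 above, with a median of -0.31. Agpat2, an acyltransferase of the pathway that fat storage depends on, was lowest at -1.72, -0.99, -2.00 and -1.61. Each array was past 1.5-fold, while the airs were less far apart than for Gpd1. Lpin2, a phosphatidate phosphatase, lay at -0.57, -1.04, -1.04 and -1.14, and its relative Lpin1 at -0.53 ± 0.59 (SD, n = 4). The desaturases Scd1 and Scd2 lay at -0.72 ± 0.45 and -0.56 ± 0.39 and the elongase Elovl6 at -0.53 ± 0.23 (SD, n = 4 each). The probes of Scd2 and Elovl6 differed by 1.36 and 2.13 in their averaged ratios, so these means are uncertain. In this list 0 genes passed by limma in any of the 4 comparisons. An unadjusted p under 0.05 in the averaged effect was found for 7 of the 22, beside 1430 of all 9153 genes.

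Lipolysis and lipid droplet genes had a median of -0.47 over 19 of 27 genes, 13 below 0 and 6 above. By limma 0 passed, and 10 of the 19 had an unadjusted p under 0.05 in the averaged effect, beside 1430 of all 9153 genes. Besides the lipases and coat proteins named above, the list holds Fabp5, a fatty acid carrier of many cell types, at -0.59, -0.75, -0.64 and -1.14, on array 1 of particle-free air right at the 1.5-fold limit. Cidea, a droplet protein of brown fat, is in this list too.

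Brown fat and thermogenesis genes were divided. The list had 16 of 26 genes measured, 14 below 0 and 2 above, with a median of -0.22 (-0.13 under particle-free, -0.31 under UCP air). Cox8b, a respiratory chain subunit of brown fat and of heart and skeletal muscle, lay at -0.80 and -1.19 in particle-free air and at -2.11 and -2.57 in UCP air (-1.67 ± 0.82, SD, n = 4, limma adjusted p = 0.0696). Cidea lay at -1.36, -0.78, -2.10 and -1.92 (-1.54 ± 0.60, SD, n = 4, limma adjusted p = 0.0804). For both, all arrays were past 1.5-fold and the airs did not overlap. Kcnk3, a potassium channel of brown fat, heart and lung vessels, was at -0.18 and -1.63 in particle-free air and at -1.38 and -0.90 in UCP air. Cox7a1, the muscle and brown fat form of another respiratory subunit, lay near 0 in particle-free air (0.03 ± 0.31) and at -0.96 ± 0.49 in UCP air (SD, n = 2 each).

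Regulators of brown fat varied. Ppargc1a, the coactivator that drives mitochondrial biogenesis and Ucp1, lay at 0.31 ± 0.36. Prdm16, which sets brown fat identity, lay at -0.20 ± 0.21, and Dio2, the thyroid hormone deiodinase that brown fat uses, at -0.20 ± 0.54 (SD, n = 4 each). The arrays of these 3 genes scattered on both sides of 0. Ppargc1b, a coactivator related to Ppargc1a that was named after its values were seen, read 0.71, -0.36, -1.04 and -0.50, with both UCP arrays below both particle-free arrays. By limma 0 genes of the brown fat list passed (3 of 16 at an unadjusted p under 0.05 in the averaged effect, beside 1430 of all 9153 genes). Adipogenic regulators as a list had a median of -0.11 over 13 of 20 genes, 7 below 0 and 6 above. Of the 13, 0 passed by limma and 2 had an unadjusted p under 0.05 in the averaged effect, beside the same 1430 of 9153. Lowest was Zfp423 at -0.53 ± 0.61. Cebpd, which acts early in differentiation and is also raised in inflammation, lay at 0.74 ± 0.48 (SD, n = 4 each). Nr1h3 was highest in the mean at 0.997 ± 1.70 (SD, n = 4), carried by 3.51 on array 2 of particle-free air.

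**Figure D2:**
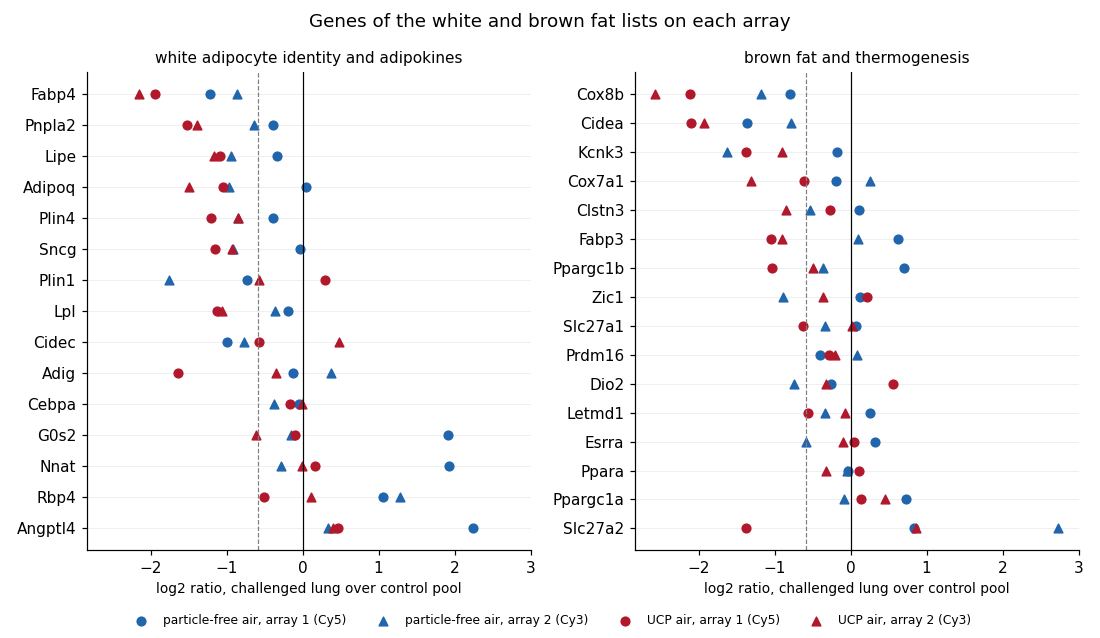
Log2 ratio of challenged lung over control pool (horizontal axis) on each array for the 15 measured genes of the white adipocyte list (left) and the 16 of the brown fat list (right), ordered by their mean. The dashed line is a 1.5-fold lower level. Fabp4, Cox8b and Cidea lie past it on all 4 arrays with the UCP arrays lowest, while Ppargc1a, Prdm16 and Dio2 scatter around 0.

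Counted once each, the 4 lists of white fat, triglyceride synthesis, lipid droplets and brown fat held 63 measured genes. At least 1.5-fold lower on all 4 arrays were 5 of them, Fabp4, Fabp5, Cidea, Cox8b and Agpat2, or 7.94%, beside 1.02% of all genes, and 0 were at least 1.5-fold higher, beside 1.16%. Without array 1 of particle-free air the counts became 13 of 63 and 1.77% of all genes, and with each array centred on its median 4 of 63 were left, beside 0.918%. On both arrays of particle-free air the 1.5-fold lower share of all genes was 3.58%, and on both of UCP air 3.82%. In the white adipocyte list 3 of 15 genes reached it in particle-free air and 7 of 15 in UCP air, and in the brown fat list 2 and 5 of 16. Below 0 on all 4 arrays were 7 of 15 white and 3 of 16 brown fat genes, beside 14.1% of all genes. Both UCP arrays lay below both particle-free arrays for 28 of the 63 genes (44.4%, beside 15.4% of all genes). This last count was 43 of 63 without array 2 of particle-free air, when 37.8% of all genes met it. By limma 0 of the 63 passed in the averaged effect, and 2, Cox8b and Fabp4, did so when capped values were set to missing, which lets 42 genes in all pass. The lists were put together with earlier results of these arrays known, so these counts describe them and are no independent support.

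**Figure D3:**
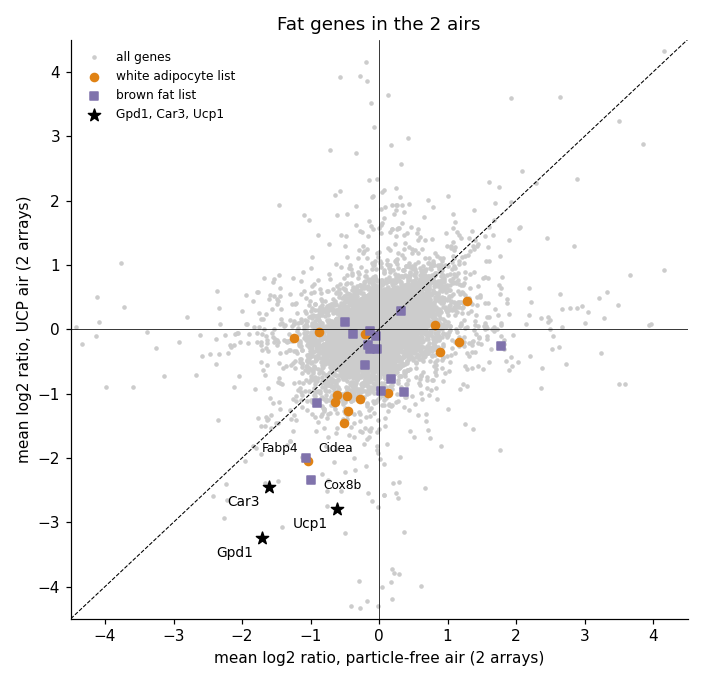
Mean log2 ratio in particle-free air (horizontal axis) against UCP air (vertical axis), 2 arrays each, for all 9153 genes in grey, except 37 outside the axes, the white adipocyte list (circles), the brown fat list (squares) and Gpd1, Car3 and Ucp1 (stars). Points below the dashed diagonal were lower in UCP air. The members lie far below 0 on the vertical axis, followed by Cox8b, Fabp4 and Cidea, and only Ucp1 of the 3 lies near 0 on the horizontal axis.

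The pathways around each member showed no shared level. Fatty acid oxidation, which feeds brown fat, had a median of -0.27 over 13 of 23 genes, 11 below 0 and 2 above. By air the median was -0.01 under particle-free and -0.41 under UCP air. Both UCP arrays lay below both particle-free arrays for 6 of the 13 genes (46.2%, beside 15.4% of all genes). Acadvl, the very long chain acyl-CoA dehydrogenase, lay at -0.16 and 0.19 in particle-free air and at -1.51 and -2.52 in UCP air, and Hadha, of the mitochondrial trifunctional protein, at -0.35, -0.31, -1.31 and -0.81. Both were lower in UCP air, as Ucp1 was. Both enzymes are abundant in heart too, and the part of heart in these values was not tested. Of the NADH shuttle genes, Gpd2, the mitochondrial partner of Gpd1, lay at -0.43, -0.02, -0.94 and -0.27 with probes that differed by 1.15 in their averaged ratios. The cytosolic malate dehydrogenase Mdh1 lay at -0.46 ± 0.20 and Ldhb, the heart form of lactate dehydrogenase, at -0.54 ± 0.34 (SD, n = 4 each). The list had 5 of 11 measured genes below 0 and 6 above, with a median of 0.05. By limma 0 of 13 and 0 of 11 genes passed. In the averaged effect 2 and 3 had an unadjusted p under 0.05, beside 1430 of all 9153 genes.

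Of 15 other carbonic anhydrases, enzymes that interconvert carbon dioxide and bicarbonate, 6 were measured, with a median of -0.08. By limma 0 passed, with 2 of 6 at an unadjusted p under 0.05 in the averaged effect, beside 1430 of all 9153 genes. None of the 6 had an averaged ratio near that of Car3. Car1, the red cell form, lay at 1.58, 2.26, 1.19 and 6.00, the opposite side of 0 on every array, with array 2 of UCP air far above the others. Car2, a widely expressed form, lay at 0.64 ± 0.62, with probes that differed by 1.74 in their averaged ratios. Car11 lay at -0.46 ± 0.25, Car15 at -0.22 ± 0.08, Car12 at -0.15 ± 0.48 and Car13 at -0.00 ± 0.32 (SD, n = 4 each). In the RefSeq gene table Car13, Car1 and Car2 are the direct neighbours of Car3 in the genome, so the 4 genes sit side by side with averaged ratios from -2.03 for Car3 to 2.76 for Car1. Genes beside Gpd1 and Ucp1 were closer to 0. Of the 5 named protein-coding genes on each side of Gpd1 all 10 were measured, with averaged ratios from -0.23 to 0.46, and of those around Ucp1 4 were measured, from -0.21 to 0.23.

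The carriers related to Ucp1 had a median of 0.07 over 8 of 14 genes, 4 below 0 and 4 above. By limma 0 passed (2 of 8 at an unadjusted p under 0.05 in the averaged effect, beside 1430 of all 9153 genes). Slc25a14, a brain uncoupling protein relative, lay at 0.36 ± 0.23, the phosphate carrier Slc25a3 at 0.59 ± 0.27 and the ATP/ADP carrier Slc25a5 at 0.22 ± 0.44 (SD, n = 4 each). Ucp2 and Ucp3 were not analysed here.

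Transcripts of several other tissues had negative ratios on the same arrays as the fat genes. The genes closest to each member, by the root mean square difference of the log2 ratios over the 4 arrays, were mostly not fat genes. Closest to Gpd1 were Krt5, a keratin of basal squamous epithelium (0.34), Car3 (0.59), the purine enzyme Ada (0.61), the squamous keratin Krt13 (0.65) and Sbsn, a protein of stratified epithelium (0.74), where the median over all genes was 2.63. Closest to Car3 were Ada (0.18), the developmental myosin Myh8 (0.41), the cornified envelope gene Lce3f (0.45), Krt5 (0.48) and Cox8b (0.49). Closest to Ucp1 were the atrial myosin light chains Myl4 (0.38) and Myl7 (0.50), the heart stress gene Ankrd1 (0.52), cardiac troponin I, Tnni3 (0.55), and the kinase gene Prkg2 (0.56), with medians over all genes of 2.11 for Car3 and 2.10 for Ucp1. Myl7, for example, read -0.57, -0.71, -2.66 and -3.00, close to the 4 values of Ucp1, and Krt5 read -1.22, -1.62, -3.29 and -2.85, close to those of Gpd1. The members themselves differed by 0.59 between Gpd1 and Car3, 0.82 between Car3 and Ucp1 and 0.88 between Gpd1 and Ucp1. Likeness over 4 arrays is a description and says nothing of shared control.

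Marker lists of other tissues were low as well. Ratios have no summed level and no zero level, so each list is given by its median on each array. The white adipocyte markers (6 of 10 measured) had medians of -0.53 and -0.91 on the particle-free arrays and of -1.07 and -1.11 on the UCP arrays, and the brown adipocyte markers (8 of 11) of -0.23, -0.42, -0.45 and -0.64. Squamous epithelium (6 of 13) lay lower still, at -1.08, -1.64, -1.78 and -1.81, with the cornified protein Lor at -2.60 ± 1.07 and Krt13 at -2.44 ± 0.40 (SD, n = 4 each). Fast skeletal muscle (12 of 17) lay at -0.89, -1.70, -0.99 and -0.91, with Myh1 at -1.61 ± 0.14 and Myh4 at -1.52 ± 0.40 (SD, n = 4 each). Its genes did not share a level in UCP air, where Tnnc2, Ckm and Mylpf, named after their values were seen, averaged 0.25, 0.31 and 0.30, and only 4 of the 12 had the lower mean there. Its troponin Tnni2 read -16.33 on array 2 of UCP air, a capped ratio, against 0.70 on array 1.

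The median of slow skeletal muscle (6 of 8) was near 0 in particle-free air, at 0.04 and 0.17, and low in UCP air, at -1.56 and -1.58. In particle-free air its genes lay on both sides of 0, from -0.78 ± 0.30 for Myh7 to 1.77 ± 0.37 for Myl2 (SD, n = 2 each). Ventricular heart muscle (9 of 12) gave 0.29 and 0.15 against -1.52 and -1.46, and atrial muscle (3 of 4) -0.57 and -0.71 against -2.77 and -3.00. The slow muscle and ventricular lists share Myl2, Myl3 and Tnnc1, so their medians are not separate readings. These 3 genes are named for this overlap, and Myl2 also for the range above. The slow muscle troponins Tnnt1 and Tnni1 were not among the measured genes. Nppa, the atrial hormone, averaged -5.81 ± 0.14 on the UCP arrays against 0.11 ± 0.39 on the particle-free ones (SD, n = 2 each), and Tnnt2, cardiac troponin T, -2.76 ± 0.26 against -0.01 ± 0.07. Thymus genes (8 of 15) lay at -0.26 and -0.33 against -1.44 and -1.30, with Prss16, Dntt and Cd8a lowest. Gpd1, Car3 and Ucp1 were each lower in UCP air, the direction of the steps of the heart, slow muscle, thymus and (described below) liver lists. Each was also below 0 in both airs, with Ucp1 nearest to 0 in particle-free air at -0.61. The medians of the squamous, fast muscle, atrial and thymus lists were below 0 in both airs too. So were those of 2 lists of the lung itself, by less. In particle-free and UCP air alveolar type 2 cells had medians of -0.33 and -0.12, and mesothelium of -0.035 and -0.20. The part of these tissues in the values of Gpd1, Car3 and Ucp1 was not tested.

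Liver genes (16 of 20), listed because liver also makes Car3, had medians above 0, at 2.83 and 2.38 in particle-free air and at 0.51 and 0.25 in UCP air. Their step between the airs had the direction of that of Car3, with 15 of 16 lower in the mean in UCP air, beside 48.8% of all genes. Alb, the liver's plasma protein albumin, lay at 4.61 ± 0.20 in particle-free air, where Car3 lay at -1.60 ± 0.06. In UCP air Alb lay at 0.14 ± 0.95 and Car3 at -2.46 ± 0.04 (SD, n = 2 each). The part of liver in the values of Car3 was not tested. Markers of the lung itself were measured too. Alveolar type 2 cells (6 of 10) had medians from -0.33 to -0.004 over the arrays, endothelium and alveolar type 1 cells (6 of 12) from -0.03 to 0.58, and mesothelium (3 of 7) from -0.38 to 0.24. Single lung genes lay farther out, such as the surfactant gene Sftpb at -0.88 ± 0.25 and the endothelial cadherin Cdh5 at 0.82 ± 0.37 (SD, n = 4 each). Genes of alternatively activated macrophages (8 of 12), the response that ovalbumin challenge is known for, lay at 1.25 to 2.15 on the arrays, with 7 of 8 at least 1.5-fold higher on all 4, beside 1.16% of all genes. Chil3, the highest of them at 5.58 ± 0.24 (SD, n = 4), and the others of this list bear on the likely sign of the ratios and are no finding here.

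**Figure D4:**
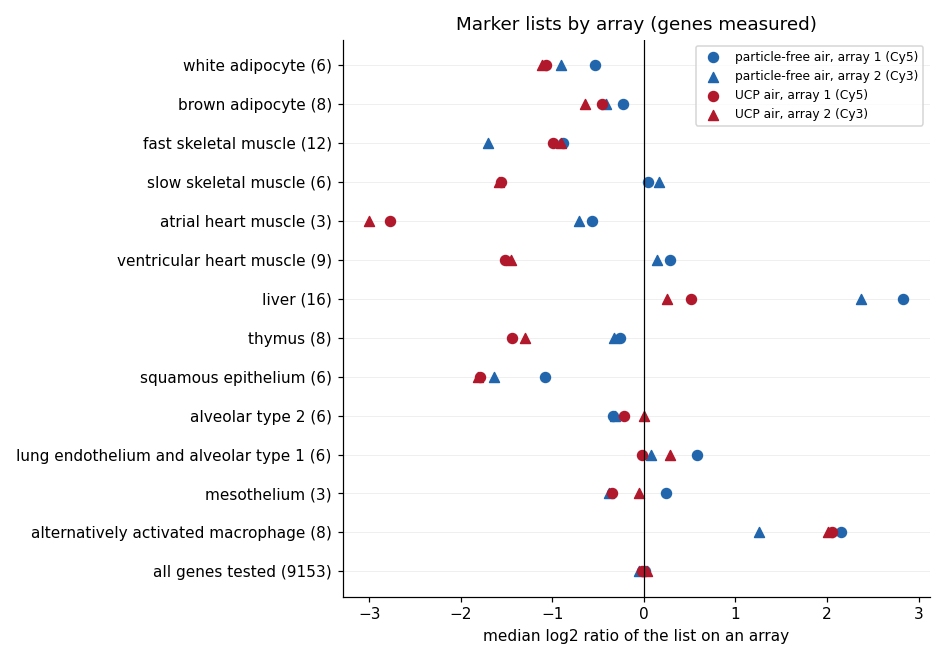
Median log2 ratio of each marker list (horizontal axis) on each of the 4 arrays, with the number of measured genes in brackets, circles for array 1 and triangles for array 2 of an air. White and brown fat, squamous epithelium, fast muscle, atrial muscle and thymus lie below 0 on all arrays, with atrial muscle and thymus far lower in UCP air. Alveolar type 2 cells lie below 0 on all arrays too, but only at -0.004 on array 2 of UCP air. Ventricular and slow muscle lie below 0 in UCP air only. Liver lies above 0, mainly in particle-free air, and all 9153 genes together lie close to 0.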

How the data were processed

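Lung RNA was compared on 4 dual-colour arrays, and per the labels' protocols 20 µg of total RNA went into a reverse transcription with Cy3 or Cy5 labelling. The values deposited by the authors, log2 ratios of both channels, were used unchanged; array medians were -0.01, -0.07, -0.02 and 0.02. No scanner, image software or normalization is given in the sources used here. Without spot brightness, dim probes could not be filtered, and the number of arrays limits precision. On each array the ratios of 25, 44, 20 and 58 probes sat on a capped plateau; no member did.

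Of 20205 probes, 13852 had 1 gene symbol, 0 several and 6353 none; 18160 had a value on all 4 arrays. Probes of a gene were averaged (9153 genes). Limma 3.58.1 (R 4.3.3) fitted 1 coefficient per air on all 4 arrays (2 residual and 2.37 prior degrees of freedom, eBayes), with 4 two-sided comparisons against 0 or each other and Benjamini-Hochberg adjustment over all genes at 0.05. Tests against 0 do not include how much control mice vary. The fit was tested on simulated data. The members and the 22 gene lists were chosen with earlier results of these data known. Named genes follow a fixed rule: the members, preset fat genes and carbonic anhydrases, the genes with the largest averaged ratios in each list (up to 6 per fat or pathway list, 3 per marker list) and the 5 closest genes per member. Alternatives were centring, scaling, probe handling, capped and missing values, a replicate block and leaving out each array.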

Additional observations from a re-analysis of the deposited data

Results flagged for a closer look

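For 2 of the genes named, both arrays of one air lay above 0 and both of the other below. Slc25a13, a mitochondrial aspartate/glutamate carrier of the NADH shuttle and a relative of Ucp1, lay at -0.92 and -0.37 in particle-free air and at 1.80 and 2.37 in UCP air, a difference of 2.73 on the log2 scale (limma adjusted p = 0.509 for the difference, which it did not pass). Etfdh, which passes electrons from fatty acid oxidation to the respiratory chain, lay at 0.01 and 0.07 in particle-free air and at -0.41 and -0.81 in UCP air, a difference of -0.65 (limma adjusted p = 0.979).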

How the results depend on the processing

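The averaged values of Gpd1, Car3 and Ucp1 kept their sign in every alternative run and moved by less than 1 SD, from -2.58 to -2.39, from -2.08 to -2.00 and from -1.97 to -1.44. Of 81 values of the members, averaged or by air, 76 moved by less than the spread between their arrays, 5 by more and 0 changed sign. Scaling moved 4 of the 5, with Gpd1 in UCP air at -3.61. Many of the 76 could not have moved, so this count does not measure stability. No member had a capped or missing value, and leaving out an array of the other air cannot change a value by air. Leaving out 1 of 2 arrays always moves their mean by less than their SD. Counts of genes past limma's threshold were not stable. The averaged effect called 9 genes, 5 with arrays centred on their medians, 0 with arrays centred and scaled, 1 by probe and 42 with capped values set to missing, when Cox8b and Fabp4 passed as well. Particle-free air called 1 gene, 0 centred and scaled, 0 by probe and 4 with probes measured on at least 3 arrays. UCP air called 2 genes, 0 centred and scaled, 0 by probe and 16 with capped values set to missing. With the replicate number, which is also the dye orientation, as a replicate block, the averaged effect, both airs and their difference called 0 genes, where 1 residual degree of freedom was left. Deviations of same-numbered arrays had a correlation of 0.06 over genes, and nothing in the labels beyond the dye orientation pairs them. Leaving out 1 array, with the lone array of that air assumed to vary like the others, gave 3 to 19 calls for the averaged effect, 0 to 4 for particle-free air, 0 to 26 for UCP air and 3 to 20 for the difference, and none of the 63 fat genes was among them. Genes at least 1.5-fold lower on all 4 arrays numbered 93 of 9153. By probe the count was 218 of 18160 probes, with or without a gene symbol. With 1 array left out it was 129 to 162 genes, on the 3 arrays that remained. Among the fat lists that count was 5 to 13 with 1 array left out, and the count lower in UCP air was 33 to 43 (both chosen after seeing the data). The median of the carbonic anhydrases, -0.08, ran from -0.15 to 0.074 with 1 array left out, and that of the carriers related to Ucp1 turned to -0.069 with probes measured on at least 3 arrays. The cause of these changes was not tested.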

Other observations

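Several further genes of the fat and mitochondrial lists varied widely between arrays. Slc27a2, a fatty acid transporter of liver and kidney that is listed with brown fat, lay at 0.83 and 2.73 in particle-free air and at -1.38 and 0.86 in UCP air. Echs1, an enoyl-CoA hydratase of fatty acid oxidation, lay at -0.07 and 0.13 in particle-free air and at -1.17 and -0.62 in UCP air, with probes that differed by 0.93 in their averaged ratios. Acadm, the medium chain acyl-CoA dehydrogenase, read -0.71, -0.33, 0.53 and -0.96 over the same arrays and showed no order by air. Got1 and Got2, the cytosolic and mitochondrial aspartate aminotransferases of the NADH shuttle, averaged 0.24 ± 0.83 and 0.20 ± 0.24 (SD, n = 4 each), so neither lay away from 0 by more than its spread. The aspartate/glutamate carrier Slc25a12 averaged -0.18 ± 0.38 (SD, n = 4).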
